A study of Mus musculus with 17 samples.

Results

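Mitochondrial ribosomal protein genes were taken as the autosomal protein-coding genes of mm10 (GRCm38, GENCODE M21) whose symbol starts with Mrpl or Mrps followed by a number, which gave 78 of 20807 autosomal protein-coding genes. Each was scored for an H3.3 peak region within 1 kb of any of its annotated transcript starts. H3.3 had been profiled by CUT&RUN, where an antibody tethers micrococcal nuclease to chromatin of permeabilised cells, so that DNA near the bound histone is cut free and read. The material was pachytene spermatocytes pooled from the testes of several adult males, purified by sedimentation (Sta-Put) and stored frozen, and the floxed Arid1a line is kept on a CD1 background. In the Arid1a cKO group (3 H3.3 libraries) the males were Arid1a fl/fl; Stra8-Cre Tg/0, with a Cre that is active from spermatogonia on. In the Arid1a WT group (2 H3.3 libraries) they were Arid1a fl/fl or Arid1a fl/+ without Cre. Nothing states that the libraries of a group came from separate animals. Deletion by Stra8-Cre is incomplete in this model, since some pachytene cells of cKO testes still carry ARID1A. The paper places the arrest of cells without ARID1A at mid-pachynema, although it also scored some at late pachynema and detected none at diplonema. The cKO fraction is thus mixed and may differ in stage. Each genotype is deposited as 1 list of peaks that combines its libraries, so no spread between replicates can be had, the sequencing depth is unknown, and the effects of genotype and of depth on a list cannot be told apart. The lists hold no expression values, and therefore neither the cell type nor the loss of Arid1a could be checked from them.

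The mitochondrial ribosome translates the few proteins that mitochondrial DNA encodes, all of them subunits of the respiratory chain and ATP synthase. Its RNA comes from mitochondrial DNA, whereas all of its proteins are made from nuclear genes and imported, so its assembly rests on many dispersed promoters. Some of these proteins descend from bacterial ribosomal proteins and others were added in mitochondria. H3.3 is the histone variant placed into chromatin outside DNA replication, typically at active promoters and enhancers, by chaperones that include HIRA.

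In Arid1a cKO, 42 of the 78 genes had an H3.3 region within 1 kb of a start, a share of 53.8% (95% Wilson interval 42.9 to 64.5%, counting error only), beside 29.5% of all autosomal protein-coding genes (6145 of 20807). In Arid1a WT, 0 of the 78 genes had one, beside 0% of all autosomal protein-coding genes. The WT list held 4 autosomal regions in all, the nearest of them 743 kb from a member (Mrpl9), so the absence from these promoters is shared with every other autosomal coding gene. A list holds only peaks that passed the caller, so a gene without a region may still carry H3.3 below that limit. The cKO share was close to that of 2 other families of housekeeping genes, the cytosolic ribosomal proteins (46 of 79, 58.2%) and the respiratory chain (51 of 92, 55.4%, chosen by symbol and including some COX assembly factors). No test was made between families, whose intervals overlap.

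The 42 genes had 1 region each, and no region served more than 1 member. The fold enrichment over IgG ran from 2.90 to 7.38 with a median of 4.09 (quartiles 3.56 to 4.77), beside a median of 4.06 over all 5475 autosomal regions at coding starts. The regions were narrow, from 175 to 849 bp with a median of 370.5 bp, beside 439 bp. Regions over 500 bp numbered 10 of 42 (23.8%), beside 40.8% of all start regions. The cytosolic ribosomal protein genes (median fold 4.55, median width 402 bp) and the respiratory chain genes (4.21, 356 bp) also had narrow regions. Folds over 6 occurred at 3 of 42 member regions (7.14%) and at 10.05% of all start regions. The members thus stood above the background in the share with a region and close to it in fold.

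**Figure D1:**
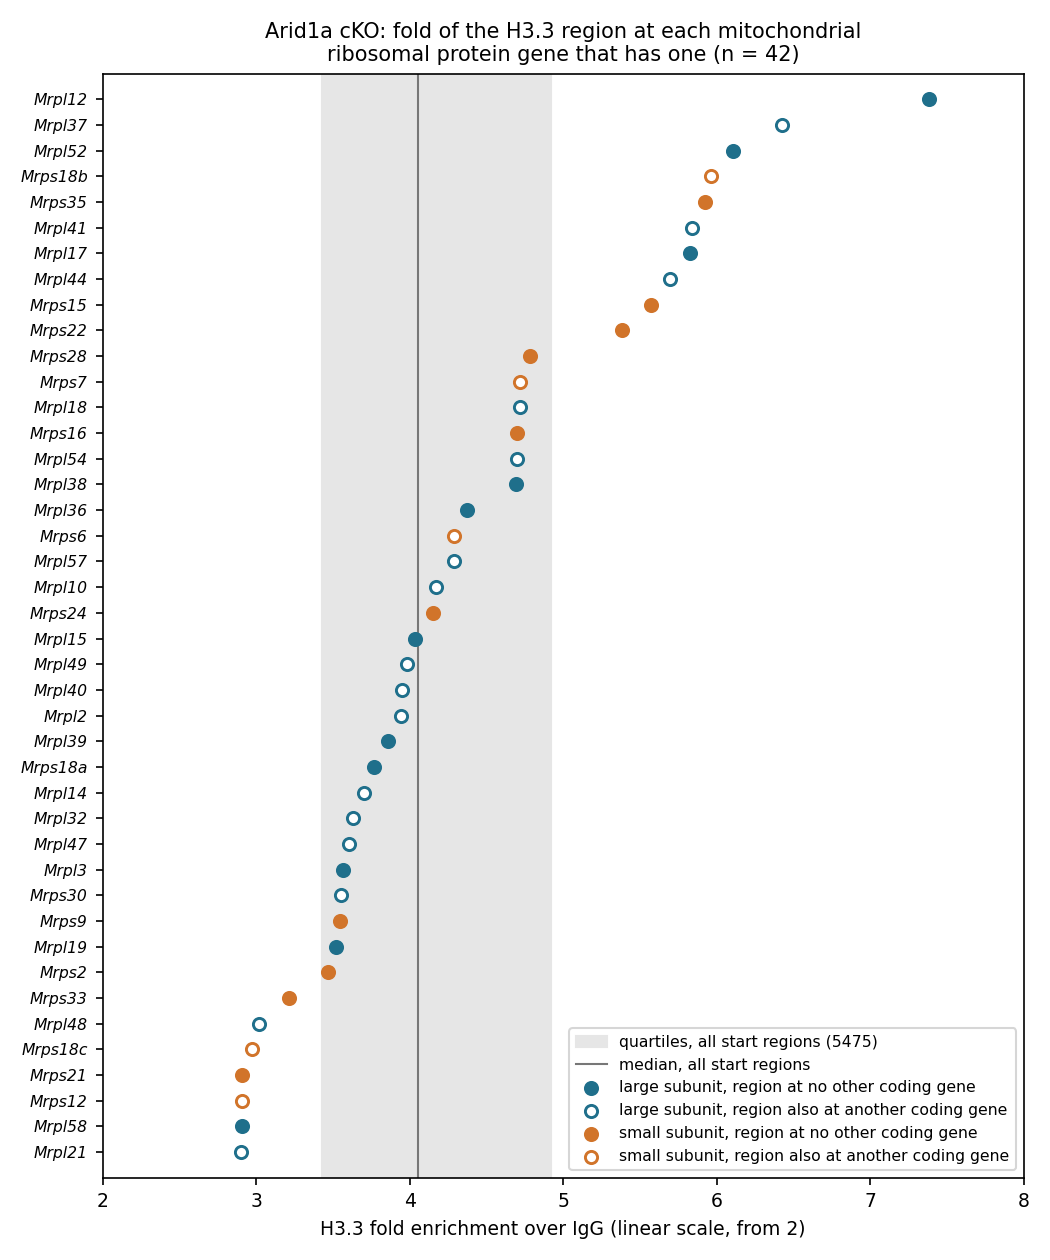
Fold enrichment of H3.3 over IgG (x axis, linear from 2) for the region at each of the 42 genes that had one in Arid1a cKO, 1 point per gene, coloured by ribosomal subunit and open where the region also lies at another coding gene. The grey band and line are the quartiles and the median (4.06) of all 5475 start regions; 10 genes, from Mrps22 (5.38) to Mrpl12 (7.38), lie above the band and 7, from Mrpl21 (2.90) to Mrps33 (3.22), lie below it.

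The highest fold belonged to Mrpl12, the stalk protein that helps to recruit translation factors to the large subunit. Its region (chr11:120484578-120485067, 490 bp, centre in intron 1) had a fold of 7.38 and a -log10 q of 11.7, and it ranked 160 among 6552 regions of the cKO list. Mrpl37 followed at 6.43, with a region of only 221 bp (chr4:107066619-107066839) centred in its first coding exon. Mrpl52 had a fold of 6.11 and a similarly narrow region of 223 bp (chr14:54426905-54427127). Both Mrpl37 and Mrpl52 are mitochondria-specific proteins of the large subunit. The next were Mrps18b (5.96), 1 of 3 relatives of bacterial S18, and Mrps35 (5.92), a mitochondria-specific protein of the small subunit. Mrpl41 (5.84), Mrpl17 (5.83), Mrpl44 (5.69), Mrps15 (5.57) and Mrps22 (5.38) completed the 10 highest. Mrpl17 is a bacterial-type protein near the exit of the nascent chain tunnel, and Mrpl44 carries a ribonuclease III-like fold.

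The sequences upstream of the principal starts (the start of the main coding transcript) are shown for 5 of these genes, because their regions differ in how far they reach into the upstream DNA. They were read 5′ to 3′ along the gene from GRCm38, up to 150 bases or to the first annotated exon. Capitals mark 7 motifs, each searched on both strands with overlaps allowed. The ETS motif, recognised by a large family of activators, was searched as CCGGAAG. The motif of NRF1, a factor of many nuclear genes for mitochondrial proteins, was searched as GCGCATGC. The SP motif, also called the GC box, was searched as GGGCGG, and the CCAAT box by the letters of its name. The motif of YY1, a zinc finger factor, was searched as AAGATGGC, the cyclic AMP response element (CRE) as TGACGTCA, and the TATA box as TATAAA.
Mrpl12 (chr11:120484463-120484612, plus strand): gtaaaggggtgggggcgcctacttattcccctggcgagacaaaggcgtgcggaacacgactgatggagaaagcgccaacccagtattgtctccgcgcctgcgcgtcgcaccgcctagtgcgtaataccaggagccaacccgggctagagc
Mrpl37 (chr4:107066869-107066987, minus strand): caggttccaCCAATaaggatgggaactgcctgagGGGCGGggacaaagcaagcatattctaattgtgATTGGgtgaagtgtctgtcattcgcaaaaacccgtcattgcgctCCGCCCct
Mrpl52 (chr14:54426759-54426908, plus strand): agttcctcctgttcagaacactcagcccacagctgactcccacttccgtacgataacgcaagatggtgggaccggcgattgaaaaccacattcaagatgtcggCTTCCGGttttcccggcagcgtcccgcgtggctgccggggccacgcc
Mrps18b (chr17:35916390-35916433, minus strand): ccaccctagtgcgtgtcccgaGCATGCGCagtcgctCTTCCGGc
Mrpl17 (chr7:105811100-105811249, minus strand): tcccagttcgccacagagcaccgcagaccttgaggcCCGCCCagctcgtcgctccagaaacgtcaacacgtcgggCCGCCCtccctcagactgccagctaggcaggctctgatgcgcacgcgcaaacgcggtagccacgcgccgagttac
The stretch of Mrpl12 held none of these motifs, and 35 of its 150 bases lay in the H3.3 region. At Mrpl37, a pair of CCAAT boxes and a pair of SP motifs filled the interval before the gene, of which 0 bases lay in the region. At Mrpl52, an ETS motif in reverse orientation began 47 bases before the start, and 4 bases of the stretch lay in the region. At Mrps18b, an NRF1 motif began 23 bases and an ETS motif 8 bases before the start, and all 44 bases shown were in the region. The stretch of Mrpl17, with 2 SP motifs, was covered over its whole length.

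At the other end, Mrpl21 had a fold of 2.90 and Mrps21, Mrpl58 and Mrps12 had 2.91 each. The last 3 share 1 value exactly, which 567 of the 6552 cKO regions (8.65%) also carry, so their order has no meaning. Mrpl58 is a peptidyl-tRNA hydrolase that rescues stalled ribosomes, and Mrps12 is a protein of the decoding centre. Mrps18c (2.97) had the narrowest region, of 175 bp. The widest was at Mrps6 (849 bp, chr16:92058056-92058904), where the sodium and inositol cotransporter gene Slc5a3 and the gene model Gm49711 start as well. Mrps7 (755 bp), Mrpl38 (739 bp), Mrps16 (662 bp) and Mrps30 (662 bp) followed. All the relatives of bacterial S18 had a region, with folds of 5.96 at Mrps18b, 3.77 at Mrps18a and 2.97 at Mrps18c.

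**Figure D2:**
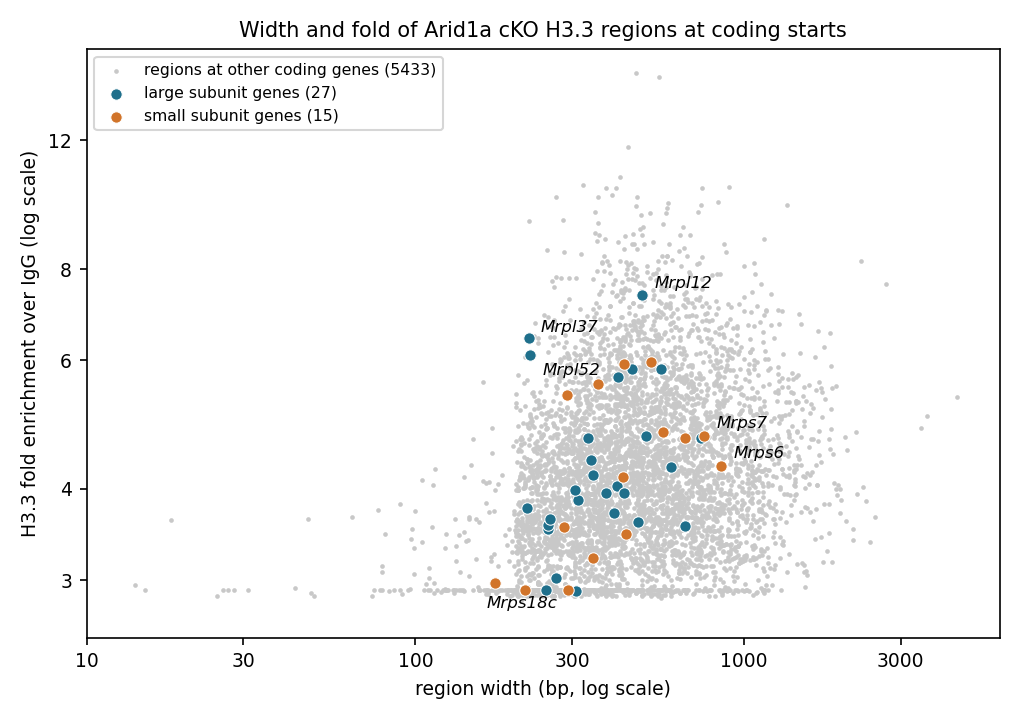
Width (x axis, bp, log scale) and fold enrichment over IgG (y axis, log scale) of every autosomal Arid1a cKO region at a coding start, with the 42 regions at mitochondrial ribosomal protein genes coloured by subunit. The member regions lie among the others, from 175 to 849 bp. The row of points near 2.91 marks the value that 567 regions of the whole cKO list share, of which those at autosomal coding starts are drawn.

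The shares of the subunits were close. Of the genes for proteins of the large subunit, 27 of 51 had a region (52.9%, 39.5 to 65.9%), with a median fold of 3.98, and of those of the small subunit 15 of 26 had one (57.7%, 38.9 to 74.5%), with a median fold of 4.29. Mrps18a and Mrps30 were counted with the large subunit, where their proteins sit, and Mrps36, which is a subunit of the 2-oxoglutarate dehydrogenase complex in spite of its name, had no region. Genes with a bacterial homologue (24 of 46, 52.2%) and mitochondria-specific genes (18 of 31, 58.1%) had shares whose intervals overlap. By the standard naming of ribosomal proteins, only Mrps18c was counted as the bacterial homologue among the relatives of S18. With Mrps18a and Mrps18b moved to that class, a choice made after the values had been seen, the counts were 26 of 48 (54.2%) and 16 of 29 (55.2%). Within the large subunit the shares were 13 of 30 (43.3%) for bacterial homologues and 14 of 21 (66.7%) for mitochondria-specific genes, and within the small subunit 11 of 16 (68.8%) and 4 of 10 (40.0%), and no test was made of these small groups.

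Groups of genes whose proteins work together held both genes with a region and genes without one. With 42 of 78 members called (53.8%), such a mixture in small groups does not set these genes apart. In the stalk of the large subunit, Mrpl12 (7.38) and its anchor Mrpl10 (4.17) had regions, whereas their neighbour Mrpl11 had none. Around the peptidyl transferase centre, Mrpl2 (3.95) and Mrpl3 (3.57) had regions, and Mrpl16 and Mrpl27 had none. Near the tunnel exit, Mrpl17 (5.83), Mrpl44 (5.69) and Mrpl47 (3.60) had regions, and Mrpl22, Mrpl23, Mrpl24 and Mrpl45 had none. Among the bacterial-type proteins in the head of the small subunit, Mrps7 (4.72), Mrps9 (3.55) and Mrps24 (4.15) had regions, and Mrps10 and Mrps14 had none. These groups were formed after the values had been seen, and describe single genes only.

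A region was absent at 36 members: Mrpl1, Mrpl4, Mrpl9, Mrpl11, Mrpl13, Mrpl16, Mrpl20, Mrpl22, Mrpl23, Mrpl24, Mrpl27, Mrpl28, Mrpl30, Mrpl33, Mrpl34, Mrpl35, Mrpl42, Mrpl43, Mrpl45, Mrpl46, Mrpl50, Mrpl51, Mrpl53, Mrpl55, Mrps5, Mrps10, Mrps11, Mrps14, Mrps17, Mrps23, Mrps25, Mrps26, Mrps27, Mrps31, Mrps34 and Mrps36. From their starts the nearest cKO region lay at a median distance of 46146.5 bp, and for 2 of them within 2 kb. Those were just outside the limit, Mrpl34 at 1232 bp and Mrps34 at 1333 bp, and just inside it the farthest were Mrps12 at 169 bp and Mrpl32 at 106 bp. No member had its nearest region between 169 and 1232 bp from a start, so the limit of 1 kb fell in a gap of that distance. The farthest from any region were Mrpl16 (821321 bp), which lies at the peptidyl transferase centre, Mrpl13 (435373 bp) and Mrps27 (417868 bp). For comparison with the stretches above, those of Mrpl45 and Mrps23 are shown, as CpG-rich starts with no region.
Mrpl45 (chr11:97315566-97315715, plus strand): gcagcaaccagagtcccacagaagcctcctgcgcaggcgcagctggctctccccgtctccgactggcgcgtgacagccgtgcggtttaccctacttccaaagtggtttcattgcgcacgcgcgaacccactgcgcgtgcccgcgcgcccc
Mrps23 (chr11:88204238-88204387, plus strand): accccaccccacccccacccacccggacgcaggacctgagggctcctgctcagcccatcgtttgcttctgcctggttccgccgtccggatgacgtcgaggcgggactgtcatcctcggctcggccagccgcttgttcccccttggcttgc
Neither stretch held a searched motif, and 0 bases of either lay in a cKO region. The wider promoter window defined below held the ETS motif in 14 of 36 members without a region (38.9%). It did so in 15 of 42 members with one (35.7%). In that window Mrps23 also held the ETS motif, which was absent from the stretch shown. The lack of motifs in this pair of stretches thus does not set members without a region apart.

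The set is rich in head-to-head promoters. A divergent partner was defined as a gene on the opposite strand with a start from 1000 bp upstream to 200 bp downstream of a start of the member. By this rule 32 of 78 members had a protein-coding partner (41.03%, 30.8 to 52.1%), beside 11.6% of all autosomal coding genes (2423 of 20807). The share was 20.3% for the cytosolic ribosomal protein genes and 33.7% for the respiratory chain genes. In Arid1a cKO, 21 of the 32 members with such a partner had a region (65.6%, 48.3 to 79.6%), beside 61.6% of all coding genes with a partner. Of the 46 members without one, 21 had a region (45.7%, 32.2 to 59.8%), beside 25.3%. So the members with a partner stood near their background, and those without one stood above theirs. These shares take no account of base composition, and among CpG-rich promoters (defined below) members without a partner were not above their background.

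In 20 of the 21 pairs with a region, the same region lay within 1 kb of a start of both genes. The call alone therefore does not assign H3.3 to 1 of them, although some regions lay nearer to 1 gene. That of Mrpl41 covered its own start, with its centre 171.5 bp from it and 763.5 bp from the start of Pnpla7. The exception was Mrpl36 (4.37), whose partner Ndufs6, a complex I subunit, had none within 1 kb. Several partners also encode mitochondrial proteins. Mrpl47 shared its region (3.60) with Ndufb5 of complex I, and Mrps12 shared its region (2.91) with Sars2, the mitochondrial seryl-tRNA synthetase. Other partners serve other parts of the cell: Fau, which encodes a cytosolic ribosomal protein, with Mrpl49 (3.98), Tcp1, a chaperonin subunit, with Mrpl18 (4.72), Psma2, a proteasome subunit, with Mrpl32 (3.63), Ska3, a kinetochore protein, with Mrpl57 (4.29), and the helicase gene Helq with Mrps18c (2.97). Mrpl40 shared its region (3.95, 431 bp) with Hira, which encodes the H3.3 chaperone named above. For the other 11 members with a partner, neither gene of the pair had a region, as with Mrpl43 and Twnk, the mitochondrial DNA helicase, and Mrps27 and Ptcd2.

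The only pair made of 2 members was Mrpl46 and Mrps11, whose principal starts lie 30 bp apart on chromosome 7. Neither had a region, and the nearest was 63577 bp from a start of Mrpl46. The bases between these starts are shown beside the stretch upstream of Mrpl40, which runs towards Hira, as a short divergent interval with no called region and a longer one with a region.
Mrpl46 to Mrps11 (chr7:78783090-78783118, plus strand): ccatgaggcaacgcgggccggcgaggggc
Mrpl40 (chr16:18876863-18877012, minus strand): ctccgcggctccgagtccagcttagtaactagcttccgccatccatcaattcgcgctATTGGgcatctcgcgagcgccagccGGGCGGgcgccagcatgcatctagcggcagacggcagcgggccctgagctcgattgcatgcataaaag
The interval between Mrpl46 and Mrps11 is 29 bases with a GC content of 79.3% and no searched motif. In the wider promoter window defined below, both genes held an SP motif. In the stretch of Mrpl40, a CCAAT box in reverse orientation began 93 bases and an SP motif 68 bases before the start, and 91 of 150 bases lay in the region.

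The regions lay mostly just inside the gene. Measured from the principal start, the region centre stood at a median of 123 bp downstream (quartiles -64.4 to 158 bp), beside 126 bp for all coding genes with a region. Centres within 200 bp of that start numbered 29 of 42 (69.0%), beside 51.6%. By the principal transcript, the centre fell in exon 1 at 22 genes (52.4%, beside 42.6%), upstream at 12 (28.6%, beside 29.5%) and in intron 1 at 8 (19.0%, beside 24.4%). The centres lay differently in members with a partner and in those without. Among members without a coding partner, 18 of 21 centres were downstream of the start, with a median of 144 bp. Among those with a partner, 11 of 21 were downstream, with a median of 25 bp. All coding genes showed medians of 150.5 bp without a partner and -48 bp with one. Of the 16 pairs with a region whose principal starts lay within 1 kb of each other, the centre was closer to the start of the member in 10 and to that of the partner in 6. These 6 were Mrpl18, Mrpl32, Mrpl49, Mrps7, Mrps12 and Mrps18c.

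**Figure D3:**
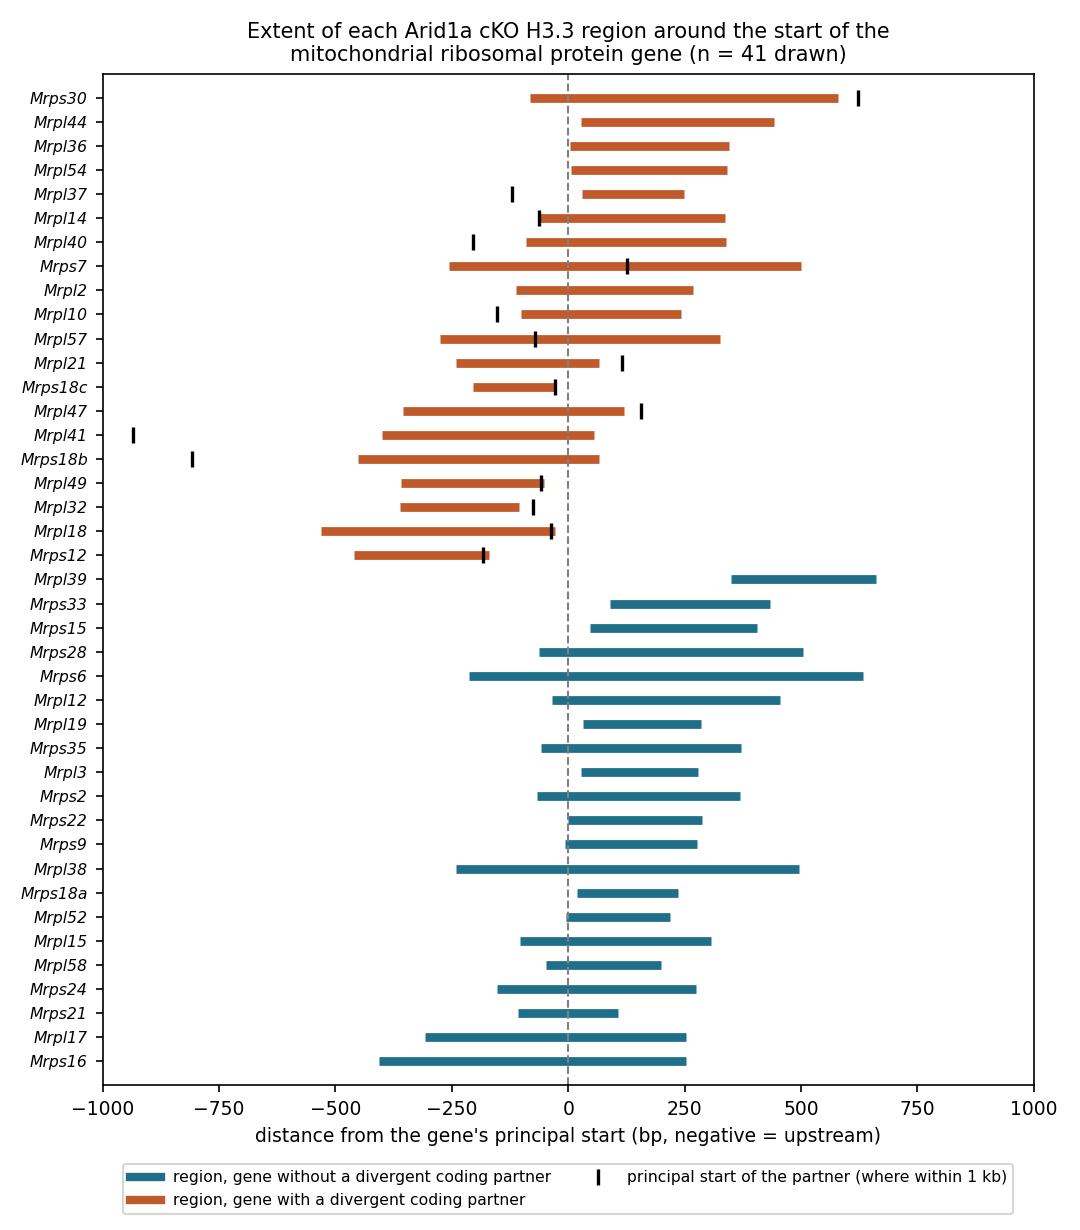
Extent of the H3.3 region in Arid1a cKO around the principal start of each gene (x axis, bp, negative upstream, dashed line at the start), 1 bar per gene, with genes without a divergent coding partner in blue, those with one in orange, and a black tick at the partner's principal start where it lies within 1 kb. Of the 42 genes, 41 are drawn, since the region of Mrpl48 lies at an alternative start 25117.5 bp upstream by its centre. The blue bars lie mostly downstream of the start, and 5 orange bars (Mrpl18, Mrpl32, Mrpl49, Mrps12, Mrps18c) end before reaching it.

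At 7 members the region covered none of their annotated starts: Mrpl18, Mrpl32, Mrpl49, Mrps12 and Mrps18c, where it lay over the partner, and Mrpl19 and Mrps18a, where it began within 32 bp of a start. Over all members, 35 of 42 regions covered a start (83.3%), beside 76.8% of all coding genes with a region. At Mrpl48, the region (fold 3.02, 268 bp) lay at an alternative start far upstream of the principal one, next to Rab6a, a gene for a Golgi GTPase.

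Base composition separated the background more than it separated the members. A promoter was called CpG-rich where the 300 bases from 250 before to 50 after the principal start had a GC content of at least 55% and a CpG ratio (observed over expected) of at least 0.6. This held for 47 of 78 members (60.3%), beside 40.7% of all autosomal coding genes. Within CpG-rich promoters the share with a cKO region was 26 of 47 among members (55.3%, 41.2 to 68.6%) and 53.9% among all genes. For CpG-rich promoters without a divergent coding partner it was 12 of 25 among members (48.0%) and 50.1% among all genes. For those with a partner it was 14 of 22 (63.6%) and 69.5%. Within the other promoters, those not CpG-rich, the share was 16 of 31 among members (51.6%, 34.8 to 68.0%) and 12.8% among all genes. The members thus lay close to the background in the CpG-rich class and above it in the other. That other class holds promoters that miss either limit, so members and background in it were not matched in composition. Mrpl10 (GC 54.3%, ratio 0.951) and Mrpl32 (54.0%, 0.823) missed the GC limit only, whereas Mrpl19 and Mrpl44 missed both. The shares of the other class thus do not describe CpG-poor promoters alone. Over both classes together, the median ratio was 0.734 for members without a region and 0.371 for all genes without one. No median was taken within the other class. The 16 members with a region in the other class include Mrpl44 (GC 42.3%, fold 5.69), Mrpl3 (43.3%, 3.57), Mrpl39 (44.3%, 3.86) and Mrpl19 (46.7%, 3.52). No member had a CpG ratio under 0.496, whereas the median over all coding genes was 0.573 and that over the members 0.822. The cytosolic ribosomal protein genes (18 of 39, 46.2%) and the respiratory chain genes (19 of 45, 42.2%) also had regions at many promoters of the other class.

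**Figure D4:**
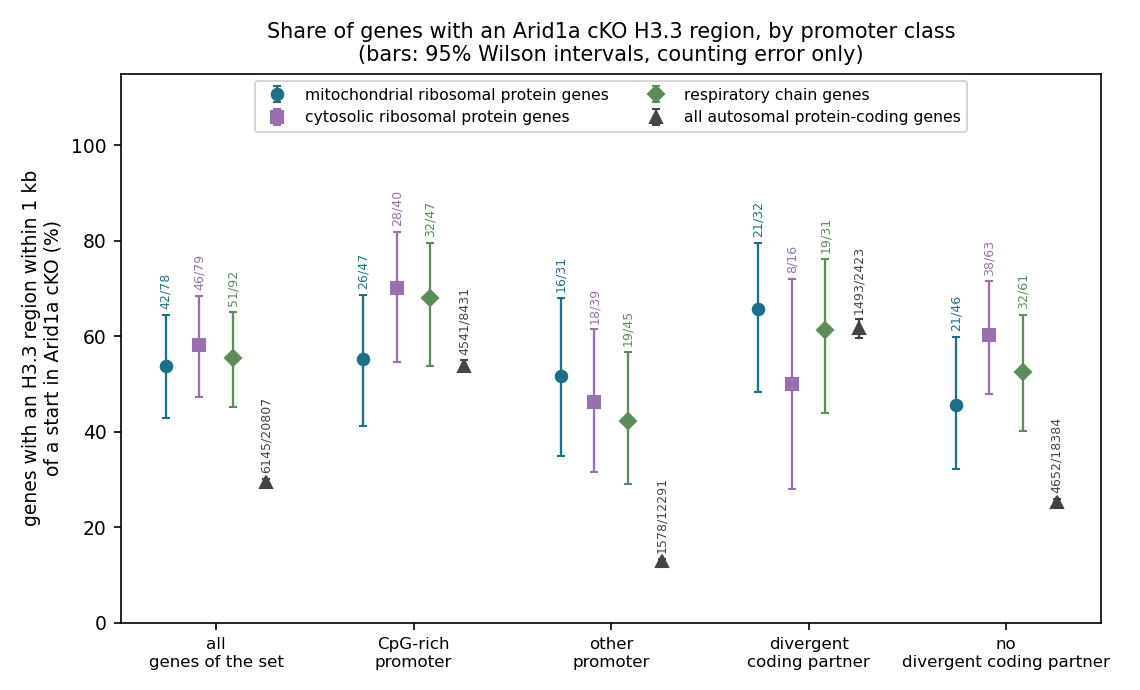
Percent of genes with an H3.3 region within 1 kb of a start in Arid1a cKO (y axis), for mitochondrial ribosomal protein genes, 2 comparison families and all autosomal protein-coding genes, over all genes of the set and by promoter class (x axis), with 95% Wilson intervals that cover counting error only and counts above them. Members and background lie together at CpG-rich promoters (55.3% and 53.9%) and at divergent ones (65.6% and 61.6%). They lie apart at other promoters (51.6% and 12.8%), a class in which they were not matched in composition.

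Several motifs were more frequent in the promoters of the set than in all promoters, and about as frequent in members with a cKO region as in those without. The ETS motif was present in 29 of 78 member promoters (37.2%), beside 11.4% of all promoters of the same length. The YY1 motif was present in 11 (14.1%, beside 3.10%) and the NRF1 motif in 8 (10.3%, beside 3.46%). The SP motif (48.7%, beside 46.2%), the CCAAT box (34.6%, beside 38.2%) and the TATA box (8.97%, beside 12.7%) were near the background. The excess of ETS, YY1 and NRF1 motifs over all promoters was not particular to the members. In respiratory chain genes the shares were 20.7% for ETS, 11.96% for YY1 and 10.9% for NRF1. In cytosolic ribosomal protein genes they were 29.1% for ETS, 7.59% for YY1 and 5.06% for NRF1. The interval of that last share (1.99 to 12.3%) holds the background. Between members with and without a cKO region, the ETS share was 15 of 42 (35.7%) against 14 of 36 (38.9%), that of YY1 7 of 42 against 4 of 36, and that of NRF1 5 of 42 against 3 of 36. Over all genes, 54.9% of promoters with the ETS motif had a cKO region, close to the 51.7% of members with it (15 of 29). Of promoters without the motif, 26.3% over all genes and 55.1% of members (27 of 49) had one. A match describes letters in the window and is no evidence of binding, and no match says only that these letters are absent from it.

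Genes of mitochondrial translation under other symbols were counted from a list, with no test against the set. Of 66 autosomal genes found in the annotation, 33 had a cKO region (50.0%, 38.3 to 61.7%), beside 29.5% of all autosomal coding genes, and 0 had a WT region. The median fold of the 33 was 4.54. Ribosomal proteins with other symbols had a region in 3 of 5 cases, Aurkaip1 (5.69), Gadd45gip1 (4.95) and Dap3 (4.85), while Ptcd3 and Chchd1 had none. Of the translation factors, 5 of 13 had one (38.5%, 17.7 to 64.5%, an interval that holds the background of 29.5%), with Mrrf, the ribosome recycling factor, highest at 5.41, and the elongation factors Tufm, Tsfm and Gfm1 had none. Of the genes that charge mitochondrial tRNAs, 9 of 20 had one (45.0%, 25.8 to 65.8%, which also holds it), led by the isoleucyl-tRNA synthetase gene Iars2 (6.17). Of the genes for assembly of the ribosome or processing of its RNA, 16 of 28 had one (57.1%, 39.1 to 73.5%). Among these, the assembly factor gene Malsu1 had a fold of 8.94, above every member, followed by Elac2 (6.33), which trims the 3′ ends of tRNAs, and the helicase gene Dhx30 (5.54).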

How the data were processed

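After adapter trimming, the authors mapped reads to mm10 (bowtie2), discarded duplicate pairs (Picard) and ran MACS2 in broad mode on each library, with rabbit IgG data of another study as control, although the H3.3 antibody was a mouse monoclonal with a rabbit secondary. That control came from pachytene-enriched cells of juvenile testes, whereas the H3.3 libraries came from adult males. The authors intersected the peaks of the replicates into 1 deposited list per genotype. Each deposited row gives a fold (ratio of H3.3 to IgG pileup), a -log10 q and a score of 10 times the latter, and a p-value that was not used. The 12 ARID1A libraries were not analysed here.

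Overlapping rows were merged into regions (12183 rows, 6552 regions in cKO), each with its highest fold. Intersecting clips widths to the overlap. Members and lists were chosen with earlier results of these data known. Named are the 10 highest and 5 lowest folds, the 5 widest regions, members without a region and shared pairs. Members whose call changed are named too, except for changes under a -log10 q limit. RefSeq promoters matched 69 members, and all 75 windows were identical to the genome. On simulated data, 200 of 200 planted calls were recovered. Each had been planted within the 1 kb limit of a principal start, so this checks the code and not the calls of the real lists. Python 3.11.15, pandas 2.3.3, numpy 2.4.6, scipy 1.17.1 and matplotlib 3.10.9 were used.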

Additional observations from a re-analysis of the deposited data

How the results depend on the processing

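Over 48 alternative values of 8 results, 39 stayed within the interval or quartiles of the reported value. The interval of a share is wide for 78 members and narrow for 20807 genes, so this count depends on the size of the set. Some of the 39 had no room to move. The share of members within 500 bp was fixed, since no member had its nearest region between 169 and 1232 bp from a start. The WT share was bound to stay at 0%, since the nearest WT region lies 743 kb from a member. Taking the mean of the rows of a region also left the median fold at 4.09. The values outside came mainly from stricter rows. With a -log10 q of at least 3, the share of members with a cKO region was 37.2% and that of all autosomal coding genes 20.8%, and 13 members lost their region. With a -log10 q of at least 5, these shares were 16.7% and 9.56%, 29 members lost their region, and the remaining ones had a median fold of 5.83 and a median width of 456 bp. The share of all genes was also 28.9% within 500 bp of a start, 27.1% with regions of 2 or more rows and 27.4% with the principal start only. The ratio of the shares of members and of all genes ran from 1.74 to 1.92 over all settings, beside 1.82 as reported. The WT share stayed at 0%. Apart from the -log10 q limits, single genes changed under 3 settings. Mrpl34 and Mrps34 gained a region at 2 kb, Mrpl39 and Mrps15 lost theirs where 2 or more rows were required, and Mrpl48 lost its own with the principal start only. The share of members with a divergent coding partner was 39.7% within 500 bp, 32.1% with principal starts only and 46.2% with noncoding partners.

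No paired analysis was possible because the libraries of a genotype had been combined into 1 list (cKO share 53.8%, WT share 0%), which also left nothing to omit in turn. Depth, the IgG control and the rule used to intersect replicates limit which promoters reached the lists, and the effect of each was not tested.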
